A study of Mus musculus with 12 samples.

Results

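The endoplasmic reticulum (ER) folding and unfolded protein response (UPR) genes are 34 genes whose products carry new secretory proteins into the ER, fold and oxidise them, remove those that fail, or sense and answer an overload of unfolded protein. They were taken by symbol from a table of 32227 genes measured by bulk RNA sequencing of sorted mouse basophil-lineage cells, and all 34 passed the filter on low counts that left 15083 genes for testing. By role they were 12 chaperones and lectins, 6 enzymes of disulfide formation, 6 sensors and transcription factors, 4 degradation genes and 6 translocation genes.

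All mice were wild-type C57BL/6J animals, and the sources used here gave neither a treatment nor an age. The 4 groups of 3 libraries were bone marrow (BM) CD34+ basophil progenitors (CD34+ BaPs, sorted as CD200R3+ cKit- CLEC12A-high CD34+ cells), BM CD34- CLEC12A-high CD9-low pre-basophils (titled immature basophils), BM CLEC12A-low CD9-high mature basophils and mature basophils of the spleen. Each library held sorted cells pooled from several animals, so the replicate spread is the spread between pools. The comparisons ask how the ER genes differ between successive stages of basophil maturation and between mature basophils of BM and spleen.

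Proteins that are to be secreted or stored in granules enter the ER through the Sec61 channel and are folded there by chaperones such as BiP and by lectins that hold glycoproteins, while protein disulfide isomerases join their cysteines. When unfolded protein accumulates, the membrane sensors IRE1, PERK and ATF6 start the UPR: IRE1 splices the mRNA of the transcription factor XBP1, PERK slows translation and favours ATF4, and a cleaved ATF6 enters the nucleus. Chaperone and degradation genes are the textbook targets of these factors. Basophils are granulocytes that carry serine proteases and other mediators in granules, and cells with a large secretory load are known for high levels of ER genes. The counts per gene do not show whether Xbp1 mRNA was spliced.

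Library totals ran from 3596108 to 8151030 counts, and each member had between 25 and 32167 counts in a library, so none rested on a count near 0. All 10 basophil markers were detected in all 12 libraries. Their summed level was 60562 to 69806 CPM (counts per 1000000, scaled to TMM-adjusted library sizes) for pre-basophils, 12923 to 15817 for BM mature and 7227 to 8159 for spleen mature basophils. This sum is set by the granule protease genes Prss34 and Mcpt8, and 6 of the other 8 markers had higher means in BM mature basophils than in pre-basophils (Cd200r3, Itga2, Il4, Gata2, Cebpa and Hdc). The mRNAs of the sort proteins followed the labels in that Clec12a was higher in pre-basophils than in BM mature basophils (log2 fold change 2.73, adjusted p = 1.62e-05, edgeR), Cd9 was lower (-0.46, adjusted p = 0.0171) and Cd34 was higher in BaPs than in pre-basophils (1.35, adjusted p = 0.00448). A single library stood apart. BaP replicate 3 had 24728 CPM of basophil markers against 66347 and 61309.5 in BaP replicates 1 and 2, 3.53% of counts in 29 mitochondrial genes against 1.75% and 1.82%, 1506 CPM of 5 erythroid markers (chiefly the globin gene Hbb-bs) against 10.03 and 8.72, and 907 CPM of 7 T and NK cell markers against 433 and 333. Of the T and NK cell markers, Nkg7, the most abundant, was at 485 CPM against 428 and 326. Lck was at 118 against 3.58 and 4.01, Klrb1c at 99.5 against 0.239 and 0.943, and Ncr1 at 94.3 against 0 and 0.471. Cd3e, Cd3g and Trac were also higher. The counts of genes called in BaPs are therefore given with and without it, as are the largest fold changes and the levels per length, while named genes of other lists are given with all 3 BaP libraries only.

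Markers of other cells moved with the groups as well. The 9 neutrophil-lineage genes, led by the granule enzyme gene Mpo, summed to 1944 to 2561 CPM for BaPs and 929 to 2186 for pre-basophils, against 102 to 146 for BM mature and 64 to 71.2 in spleen mature basophils. Mast cell markers, nearly all of it Cpa3, summed to 914 to 2462, 1662 to 1934, 549.6 to 619.9 and 330.3 to 383 CPM in the same order. Of the 6 listed mast cell genes 5 were analysed, and the protease gene Mcpt4 had a count in only 1 of the 12 libraries. Plasma cell markers (10 genes, led by Ighm) summed to 119.5 to 279 CPM in the spleen libraries, 295 in BaP replicate 3 and at most 34.1 in the other 8 libraries, and B cell markers (7 genes, led by Cd74) to 273 to 471 in spleen against at most 112 elsewhere. Macrophage and dendritic cell markers (6 genes, led by Adgre1) and eosinophil markers (4 genes, led by Siglecf) stayed at or below 40.8 and 144 CPM. Immediate early and heat shock genes, which respond to cell handling (14 genes, led by Fosb), went the other way in their sum, with 22843 to 30423 CPM for BaPs, 43953 to 50322 for pre-basophils, 95756 to 115720.0 for BM mature and 117948 to 139643 for spleen mature basophils. This sum is carried by the immediate early genes. Of the 5 heat shock genes only Dnajb1 had a higher mean in BM mature basophils than in pre-basophils. The part of these markers in the differences described below was not tested. In bulk samples fewer cells of a type and less RNA per cell cannot be told apart.

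Promoter sequence was available in RefSeq (GRCm38.p6) for 29 of the 34 genes, from 250 bases before to 50 after the start. Promoters of Hyou1, Manf, Atf6, Sec61a1 and Ssr2 were not analysed here. The ER stress element (ERSE, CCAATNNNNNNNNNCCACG), through which ATF6 and XBP1 are known to act, was matched exactly on either strand in 9 of the 29 promoters and in 39 of all 32851 promoters (0.119%). The related ERSE-II (ATTGGNCCACG) matched in 2 of the 29 and in 12 promoters overall (0.0365%). Neither the UPR element TGACGTGG (0.676% of all promoters) nor the ATF4 composite element TGATGNAAT (0.965%) matched in a member's promoter. ERSE and ERSE-II share the letters CCACG, but no promoter held both. Since these are classical UPR genes, on some of which the element was first described, the matches are a description. The 12 matched elements of the 11 genes are shown because the spacer between the fixed ends is what differs among them. Each is written 5′ to 3′ in the direction of the motif, whichever strand of the gene it lay on, with the fixed letters in capitals, and Hsp90b1 had a pair of them.
Hspa5 (65 bases before the start): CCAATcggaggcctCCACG
Hsp90b1 (212 bases before the start): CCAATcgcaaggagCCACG
Hsp90b1 (107 bases before the start): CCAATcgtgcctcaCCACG
Calr (162 bases before the start): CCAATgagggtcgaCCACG
Canx (145 bases before the start): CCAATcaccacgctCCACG
Dnajb11 (7 bases after the start): ATTGGcCCACG
Dnajc3 (105 bases before the start): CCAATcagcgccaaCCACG
Creld2 (126 bases before the start): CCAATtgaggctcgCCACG
Pdia6 (98 bases before the start): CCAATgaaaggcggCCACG
Ero1lb (201 bases before the start): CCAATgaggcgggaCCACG
Herpud1 (52 bases before the start): ATTGGgCCACG
Syvn1 (44 bases before the start): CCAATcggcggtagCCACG

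The 250 bases before the start are given for 3 chaperone genes that the results turn on, 5′ to 3′ on the gene's own strand, with the fixed ERSE letters in capitals. In GENCODE M21 these are Hspa5 (ENSMUSG00000026864, GRCm38 chr2:34771970-34777547), Calr (ENSMUSG00000003814, GRCm38 chr8:84841850-84846934) and Sdf2l1 (ENSMUSG00000022769, GRCm38 chr16:17130138-17132383). The printed stretches lie upstream of the RefSeq start. Those of Hspa5 (chr2:34771840-34772089, plus strand) and Calr (chr8:84846932-84847181, minus strand) each held 1 ERSE, on the gene's strand in Hspa5 and on the opposite strand in Calr. The stretch of Sdf2l1 (chr16:17132384-17132633, minus strand) held no match.
Hspa5: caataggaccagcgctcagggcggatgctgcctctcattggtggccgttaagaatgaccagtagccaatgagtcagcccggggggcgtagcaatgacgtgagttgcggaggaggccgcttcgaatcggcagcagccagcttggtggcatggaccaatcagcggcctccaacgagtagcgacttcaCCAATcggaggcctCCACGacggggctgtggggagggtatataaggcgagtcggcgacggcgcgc
Calr: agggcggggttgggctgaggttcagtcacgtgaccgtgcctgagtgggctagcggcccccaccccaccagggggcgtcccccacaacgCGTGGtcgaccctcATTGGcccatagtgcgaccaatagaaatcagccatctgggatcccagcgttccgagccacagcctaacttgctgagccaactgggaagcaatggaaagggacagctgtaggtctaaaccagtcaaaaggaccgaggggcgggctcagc
Sdf2l1: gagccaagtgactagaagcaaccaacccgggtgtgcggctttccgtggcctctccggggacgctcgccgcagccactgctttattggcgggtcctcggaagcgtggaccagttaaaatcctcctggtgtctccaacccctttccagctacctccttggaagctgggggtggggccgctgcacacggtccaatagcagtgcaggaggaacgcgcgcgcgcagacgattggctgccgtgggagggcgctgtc

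Most of the ER genes were high in the CLEC12A-high cells and low in mature basophils. In edgeR's quasi-likelihood test over all genes, with Benjamini-Hochberg adjusted p under 0.05 taken as a call, 30 of the 34 differed among the 4 groups, against 57.8% of all tested genes. Without BaP replicate 3 it was 33, against 65.8% of the genes then tested. The 6 libraries of BaPs and pre-basophils lay above all 6 libraries of mature basophils in 24 of the 34 genes, against 16.7% of all tested genes. None of the 34 lay below all of them, against 11.6% of all tested genes. The summed level of the 34 genes was 21729, 17032 and 9089 CPM in the 3 BaP libraries, 13684, 10185 and 11294 in those of pre-basophils, 8245, 7609 and 7432 in those of BM mature and 7071, 7454 and 7539 in those of spleen basophils. BaP replicate 3 was the lowest of the 6 CLEC12A-high libraries, and all 6 lay above the mature ones. As a share of the raw library total, the 34 genes took up 1.81% for BaPs, 1.19% for pre-basophils, 0.676% for BM mature and 0.700% for spleen mature basophils on average, so that spleen against BM mature basophils changes direction with the scaling. In CPM the group means were 15950.0 ± 6389, 11721 ± 1788, 7762 ± 427 and 7355 ± 249 CPM (SD, n = 3 each).

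**Figure D1:**
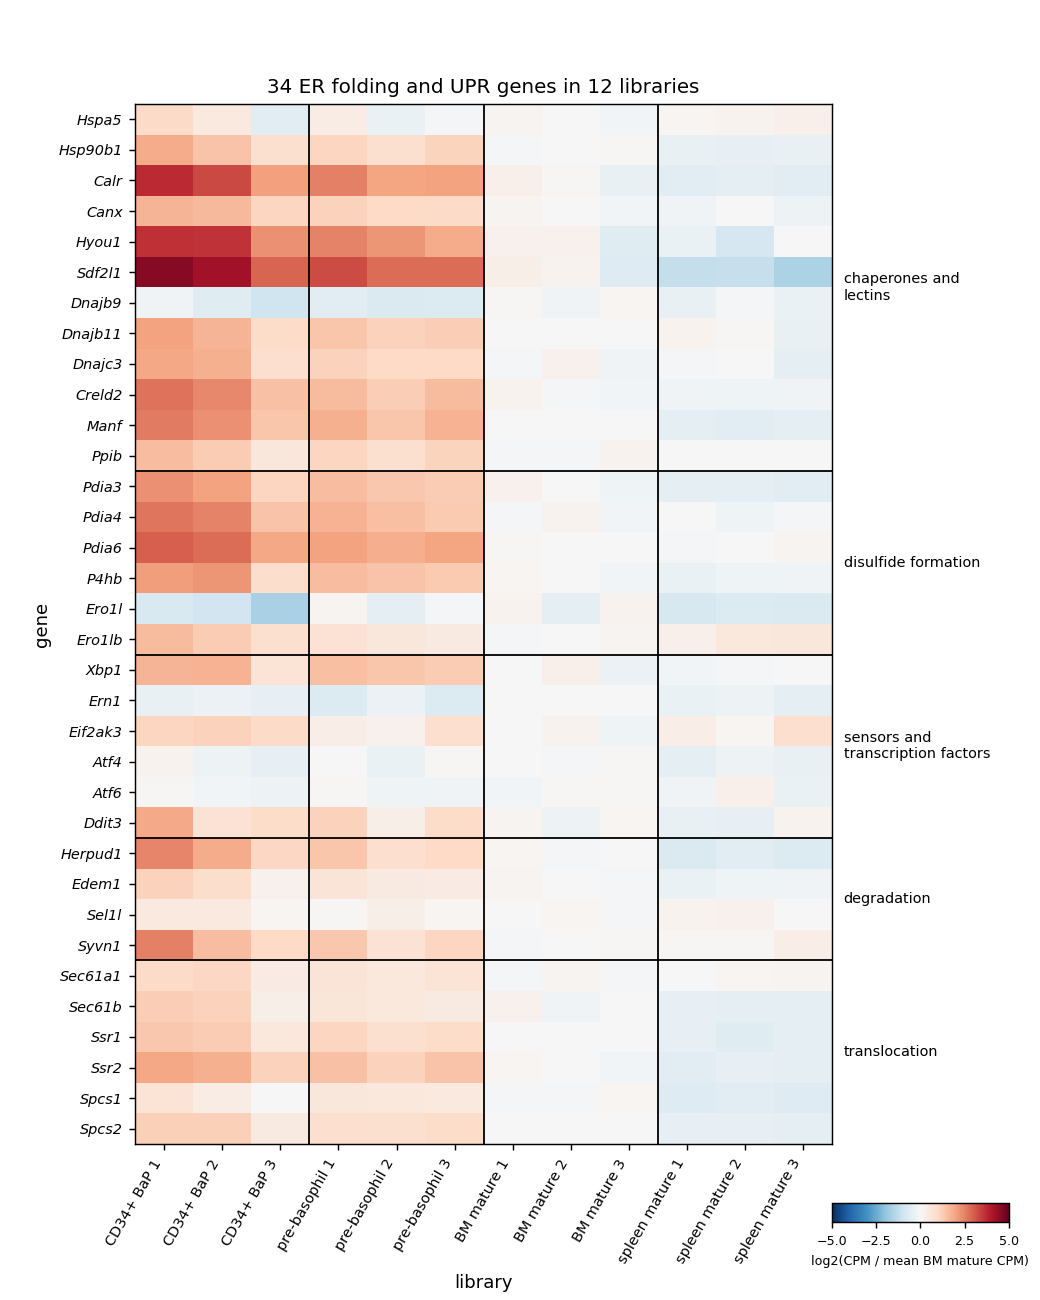
Heat map of log2(CPM divided by the gene's mean CPM in BM mature basophils) for the 34 genes (rows, grouped by role) in the 12 libraries (columns, grouped by cell type). Red marks levels above the BM mature mean and blue levels below it. The CLEC12A-high libraries are red for 24 genes without overlap, BaP replicate 3 is paler than the other BaP libraries, and Dnajb9, Ero1l and Ern1 go against the rest.

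In pre-basophils against BM mature basophils, 22 of the 34 genes were higher and 2 were lower, against 16.3% and 11% of all tested genes. The median log2 fold change of the 34 was 1.01, and that of all tested genes was -0.00443. By role, 10 of 12 chaperones and lectins, 4 of 6 disulfide genes, 1 of 6 sensors and transcription factors, 2 of 4 degradation genes and 5 of 6 translocation genes were higher. One chaperone, Dnajb9, and one sensor, Ern1, were lower. Leaving out 1 pre-basophil or BM mature library at a time left 21 to 24 members called, against 17.3% to 21.1% of the genes then tested and 27.3% with all libraries. With the replicate number as a block, 25 members were higher and 2 lower, and 29.7% of all tested genes were called. Scaling to library size alone, which moves the median of all genes to 0.22, called 27 higher and 1 lower, against 24.6% and 5.2% of all tested genes.

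**Figure D2:**
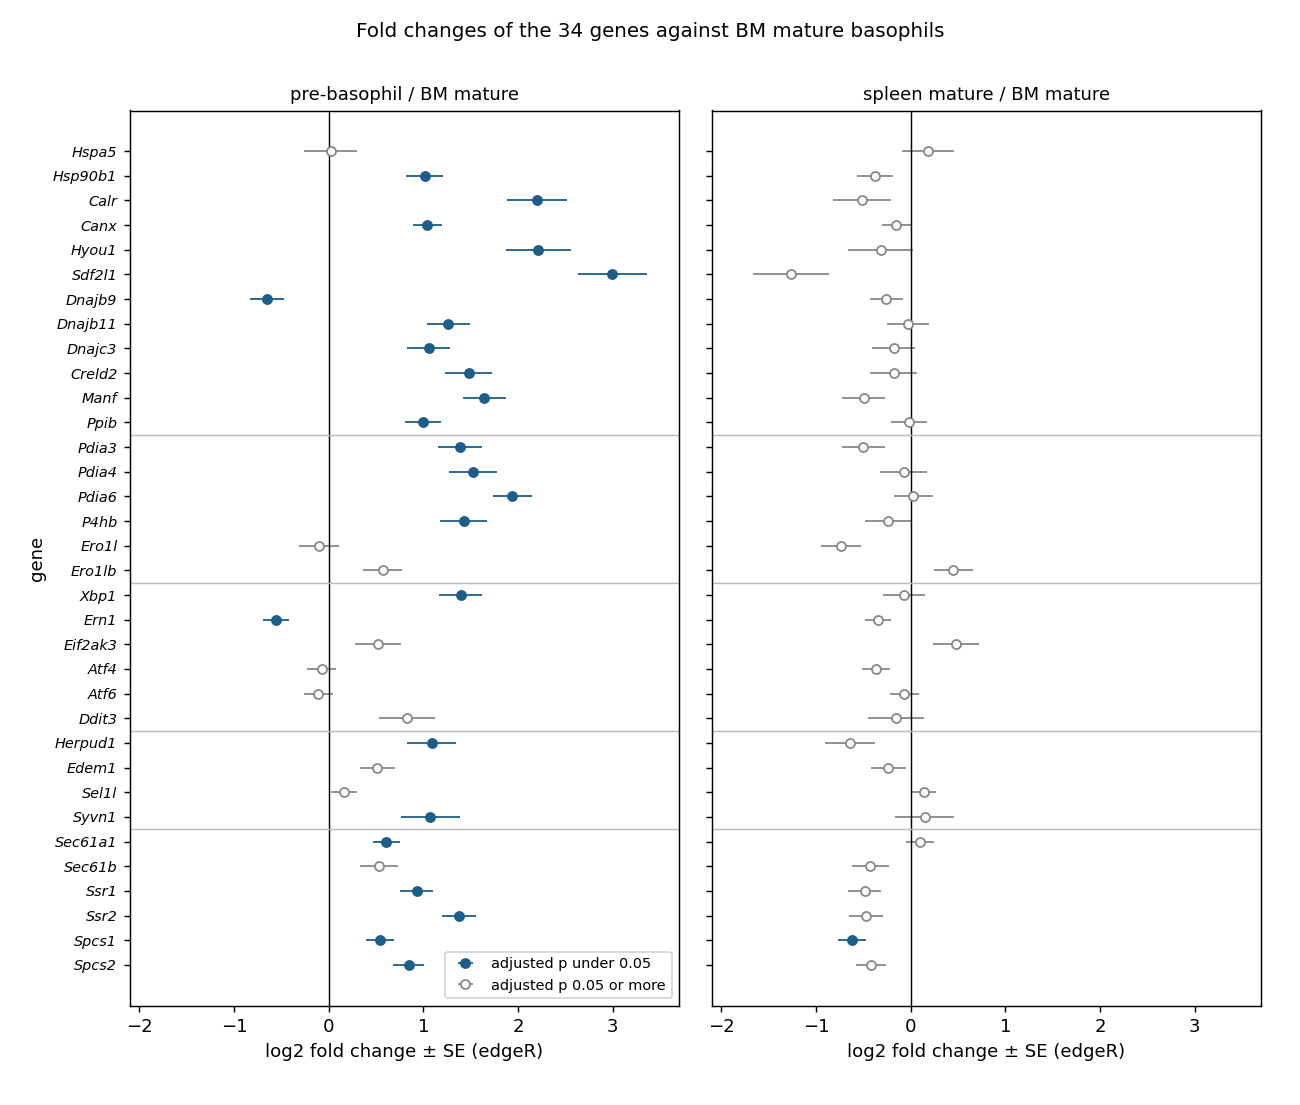
Log2 fold changes (points) with their standard errors (bars) of the 34 genes, in pre-basophils (left) and spleen mature basophils (right), each against BM mature basophils. Filled points have an edgeR adjusted p under 0.05. On the left 22 genes are filled to the right of 0 and 2 to its left. On the right only Spcs1 is filled, to the left of 0. Both panels share the 3 BM mature libraries.

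Among the chaperones and lectins, Sdf2l1, a partner of BiP and of its J-domain cochaperones, changed most. It was at 397, 312 and 127 CPM in the BaP libraries, 164, 119.8 and 119 in those of pre-basophils, 21, 19.3 and 11 in those of BM mature and 7.52, 7.76 and 5.71 in those of spleen basophils. The libraries of BaPs and pre-basophils were all far above the mature ones, and the spleen libraries were all below the BM mature ones. The log2 fold change of pre-basophils against BM mature basophils was 2.99 ± 0.36 (SE), adjusted p = 5.33e-05 (edgeR).

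Calr, the calcium-binding lectin calreticulin, was at 3419, 2574 and 1078 CPM in the BaP libraries, 1497, 1015 and 1046 in those of pre-basophils, 305, 271 and 200.5 in those of BM mature and 180.3, 186 and 175 in those of spleen basophils. No pre-basophil library came near the BM mature ones, and BaP replicate 3 lay within the pre-basophil range. Its log2 fold change between the same groups was 2.20 ± 0.32 (SE), adjusted p = 0.000218 (edgeR). Hyou1, a large chaperone that exchanges the nucleotide of BiP, had 369, 356 and 144 CPM in the BaP libraries, 164, 134 and 107 in those of pre-basophils, 34.4, 34.1 and 19.5 in those of BM mature and 23.5, 16.5 and 29.3 in those of spleen basophils. Its groups separated likewise by maturity, with BaP replicate 3 between the pre-basophil libraries. The log2 fold change was 2.21 ± 0.34 (SE), adjusted p = 0.000378 (edgeR).

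Manf, a secreted ER cofactor of BiP, was measured at 538, 426 and 227 CPM in the BaP libraries, 297, 231 and 295 in those of pre-basophils, 87.5, 88.1 and 87.6 in those of BM mature and 63.9, 60.7 and 61.9 in those of spleen basophils. The BM mature libraries differed from each other by less than 1 CPM and lay below every CLEC12A-high library, and the spleen libraries lay lower still. The log2 fold change was 1.64 ± 0.23 (SE), adjusted p = 0.00017 (edgeR). Exons of Manf overlap those of Dcaf1 on the other strand and of Rbm15b on its own, with 2396 and 2384 counts, so its reads may be shared. Creld2, an ER protein with disulfide isomerase activity that is induced by ER stress, stood at 217, 177 and 91.3 CPM in the BaP libraries, 98.4, 78.4 and 100.0 in those of pre-basophils, 37.9, 31.8 and 30.1 in those of BM mature and 29.6, 28.5 and 29.5 in those of spleen basophils. Again BaPs and pre-basophils were above all mature libraries, with a log2 fold change of 1.48 ± 0.25 (SE), adjusted p = 0.000605 (edgeR).

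Hsp90b1 (GRP94, the ER paralog of HSP90), the membrane lectin Canx (calnexin), the J-domain cochaperones Dnajb11 and Dnajc3 and the prolyl isomerase gene Ppib were called as well, with log2 fold changes up to 1.26 (Dnajb11) and adjusted p between 0.000245 and 0.00343 (edgeR). The exons of Hsp90b1 overlap the antisense gene 1810014B01Rik, which had 336 counts against 45553, and Ppib shares sequence with the annotated transcripts of Snx22 and Olfr1152, which had 131 and 639 counts against 20572.

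Hspa5, which encodes BiP, the most abundant ER chaperone, did not follow in pre-basophils against BM mature basophils. It was at 6926, 4970.4 and 2429 CPM in the BaP libraries, 4672, 2876 and 3353 in those of pre-basophils, 3899, 3571 and 3287 in those of BM mature and 3855, 4064 and 4272 in those of spleen basophils. The mature libraries lay within the range of the pre-basophil ones, and the lowest of all 12 values belonged to BaP replicate 3. The 4-group test gave an adjusted p of 0.483, and the log2 fold change of pre-basophils against BM mature basophils was 0.02 ± 0.28 (SE), adjusted p = 0.97 (edgeR). Across the alternatives tried this fold change ran from -0.20 to 0.24 and was never called. BaPs differed with the libraries used. BaP replicates 1 and 2 lay above all libraries of the other groups. Without BaP replicate 3, Hspa5 was called higher in BaPs than in BM mature basophils (log2 fold change 0.74, adjusted p = 0.00105, edgeR).

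The level of Hspa5 relative to Hsp90b1, to Calr and to the sum of the other 33 genes therefore differed between stages. The ratio of Hspa5 to Hsp90b1 in CPM was 4.24, 4.10 and 3.10 in the BaP libraries, 4.86, 3.60 and 3.41 in those of pre-basophils, 8.87, 8.02 and 6.92 in those of BM mature and 11, 11.9 and 12.1 in those of spleen basophils. Every BM mature library was above every CLEC12A-high library, and every spleen library was above every BM mature one. Hspa5 over Calr was 2.03, 1.93 and 2.25 in BaPs and 21.4, 21.9 and 24.4 in spleen mature basophils. Against the sum of the other 33 genes, the mean ratio of Hspa5 was 0.415 ± 0.0517 for BaPs, 0.445 ± 0.0654 for pre-basophils, 0.858 ± 0.0568 for BM mature and 1.23 ± 0.0630 for spleen mature basophils (SD, n = 3 each). These ratios are within a library and do not depend on the scaling between libraries.

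**Figure D3:**
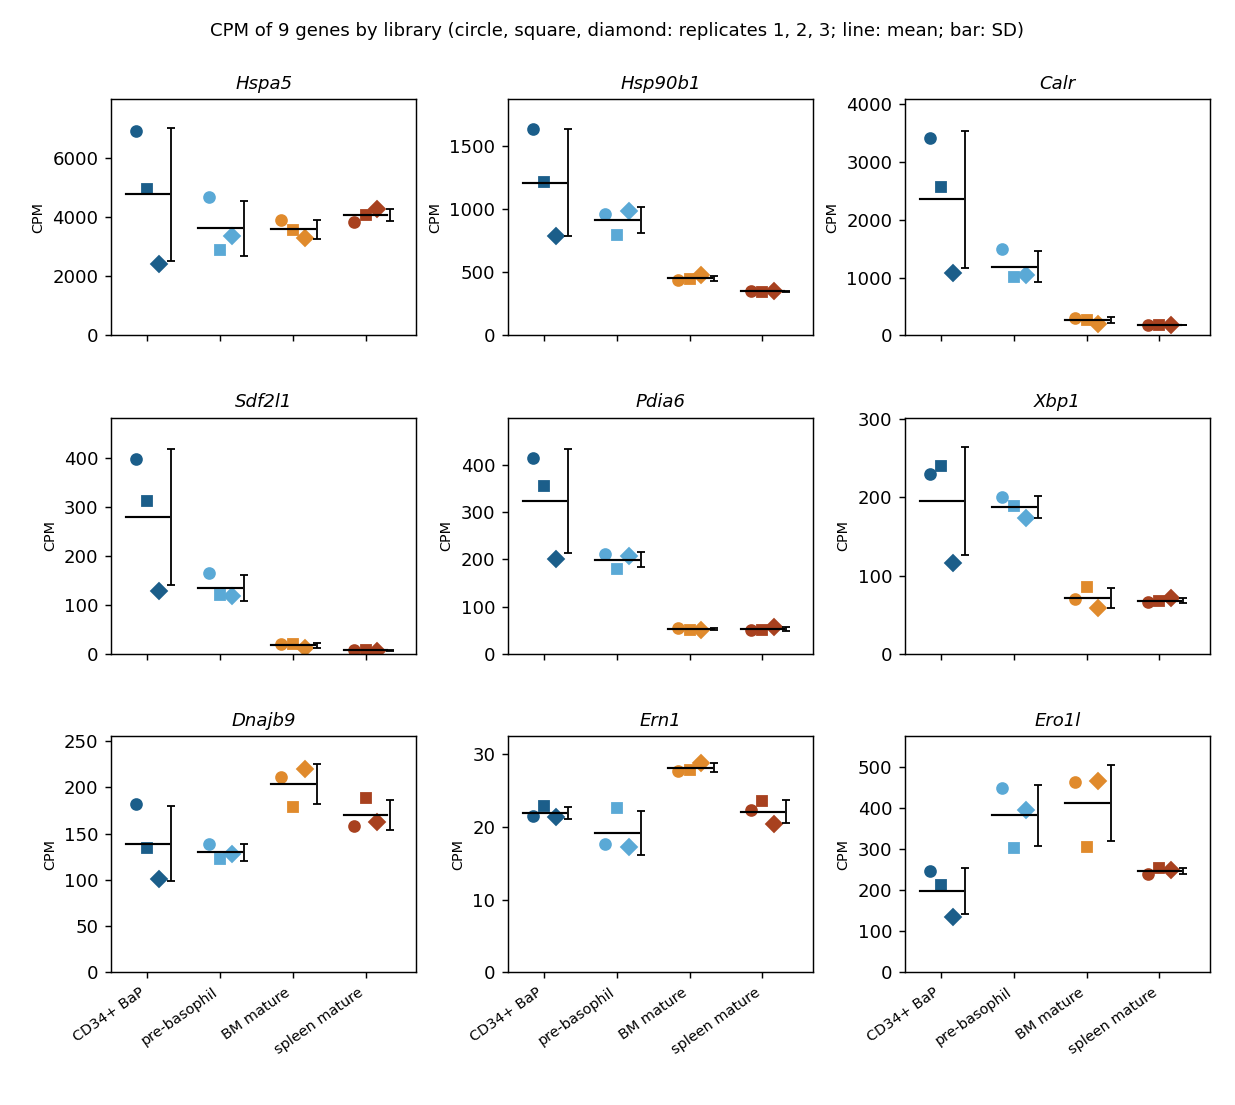
CPM (vertical axes, starting at 0) of 9 genes in the 12 libraries, by group (horizontal axis). Circles, squares and diamonds are replicates 1, 2 and 3, lines are group means and bars are SD (n = 3). Hspa5 overlaps between all groups, in BaPs only through replicate 3. Calr, Sdf2l1, Pdia6, Hsp90b1 and Xbp1 fall with maturity, and Dnajb9, Ern1 and Ero1l do not.

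**Figure D4:**
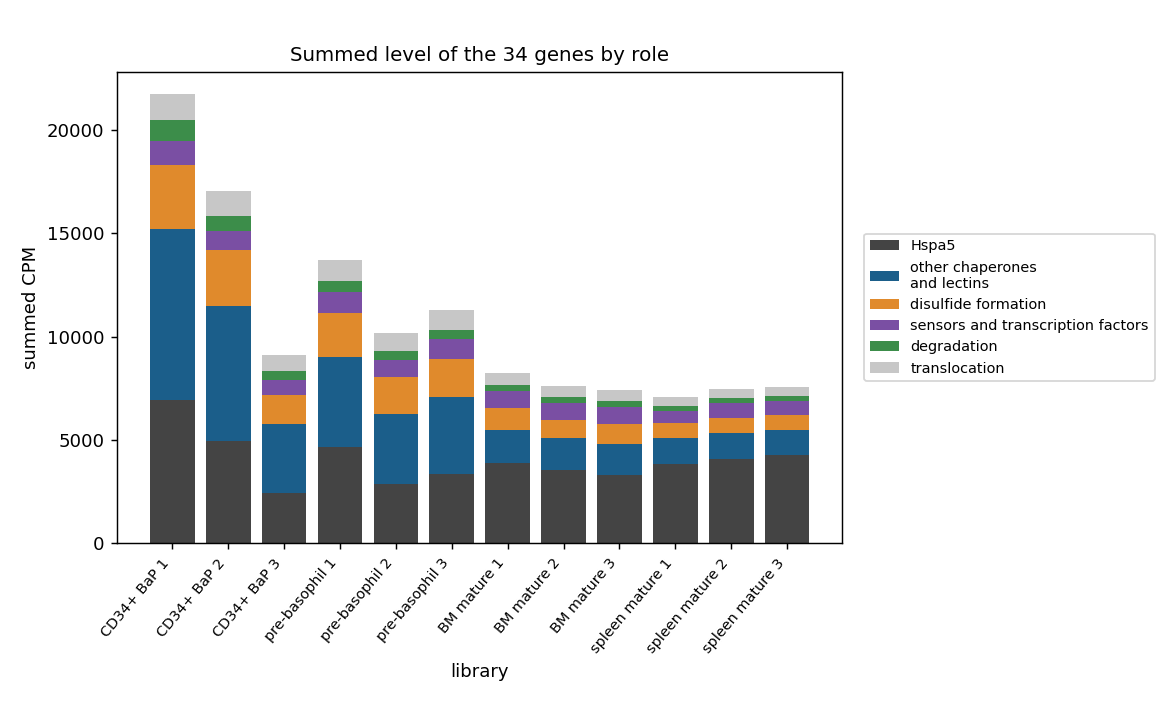
Stacked bars of the summed CPM (vertical axis, from 0) of Hspa5, of the other 11 chaperones and lectins and of the other 4 roles, in each of the 12 libraries (horizontal axis). The Hspa5 segment is about as tall in the mature libraries as in the pre-basophil ones, while the chaperone, disulfide, degradation and translocation segments of the mature libraries are shorter. The sensor segments of BM mature basophils (812 to 837 CPM) overlap those of BaPs (737 to 1175 CPM) and pre-basophils (813 to 992 CPM). BaP replicate 3 is the shortest CLEC12A-high bar at 9089 CPM.

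Dnajb9 (ERdj4), a J-domain cochaperone that represses IRE1, went the other way. It was at 182, 135 and 101 CPM in the BaP libraries, 139, 122 and 127 in those of pre-basophils, 212, 179 and 220.3 in those of BM mature and 158, 189 and 163 in those of spleen basophils. All BM mature libraries except replicate 2 were above all CLEC12A-high libraries, and BaP replicate 1 came just above that replicate. The log2 fold change of pre-basophils against BM mature basophils was -0.65 ± 0.18 (SE), adjusted p = 0.0138 (edgeR). The call was lost without pre-basophil replicate 2, without BM mature replicate 1 or without BM mature replicate 3, where adjusted p reached at most 0.062.

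Of the disulfide genes, the isomerase genes Pdia3, Pdia4, Pdia6 and P4hb were all higher in pre-basophils than in BM mature basophils. Pdia6 was at 416, 356 and 200.2 CPM in the BaP libraries, 211, 181 and 206 in those of pre-basophils, 54.1, 50.8 and 50.9 in those of BM mature and 49.8, 51.6 and 57 in those of spleen basophils. The mature groups lay together between 49.8 and 57.0 CPM, far below both CLEC12A-high groups, and the log2 fold change was 1.94 ± 0.21 (SE), adjusted p = 1.98e-05 (edgeR). Pdia3 (ERp57), which works with the lectins calnexin and calreticulin, was at 1439, 1174 and 616 CPM in the BaP libraries, 851, 744 and 711 in those of pre-basophils, 341, 289 and 254 in those of BM mature and 213, 213 and 199 in those of spleen basophils. The CLEC12A-high libraries again lay above all others, and the log2 fold change was 1.38 ± 0.23 (SE), adjusted p = 0.000591 (edgeR). Pdia4 was at 269, 236 and 115 CPM in the BaP libraries, 141, 119.8 and 107 in those of pre-basophils, 40.4, 48.8 and 38.8 in those of BM mature and 43.5, 36.6 and 41.2 in those of spleen basophils, with the mature groups overlapping and a log2 fold change of 1.52 ± 0.25 (SE), adjusted p = 0.000547 (edgeR). P4hb, the founding disulfide isomerase, had means of 420.1 ± 33.3 CPM for pre-basophils and 157 ± 12.2 for BM mature basophils (SD, n = 3), a log2 fold change of 1.42 ± 0.25 (SE), adjusted p = 0.000775 (edgeR).

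The oxidase genes that recharge these isomerases differed from them. Ero1l (Ero1a in newer annotation) was at 247, 212 and 135 CPM in the BaP libraries, 451, 303 and 397 in those of pre-basophils, 463, 306 and 468 in those of BM mature and 239.9, 254 and 249 in those of spleen basophils. All BaP libraries lay below all pre-basophil and BM mature libraries, and the spleen libraries were also below those of BM mature basophils. In pre-basophils its log2 fold change against BM mature basophils was -0.11 ± 0.21 (SE), adjusted p = 0.755 (edgeR). Ero1lb, the second oxidase gene, was much lower, with means of 27.9 ± 7.35 CPM for BaPs, 17.5 ± 1.66 for pre-basophils, 11.7 ± 0.966 for BM mature and 16 ± 1.88 for spleen mature basophils (SD, n = 3). The BM groups did not overlap one another, yet the pre-basophil comparison missed the threshold at an adjusted p of 0.0552 (edgeR).

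Of the sensors and transcription factors, Xbp1 fell most with maturity. This target of IRE1 was at 229, 239.5 and 116 CPM in the BaP libraries, 200.4, 189 and 173 in those of pre-basophils, 70.7, 84.9 and 59 in those of BM mature and 65.8, 67.7 and 70.9 in those of spleen basophils. BaP replicate 3 stood between the pre-basophil and the mature libraries, and the other CLEC12A-high libraries were at least 173 CPM. Pre-basophils were 2.63-fold above BM mature basophils, a log2 fold change of 1.39 ± 0.22 (SE), adjusted p = 0.000474 (edgeR). Ern1, which encodes IRE1 itself, was at 21.5, 22.9 and 21.3 CPM in the BaP libraries, 17.6, 22.6 and 17.3 in those of pre-basophils, 27.7, 27.8 and 28.8 in those of BM mature and 22.2, 23.6 and 20.5 in those of spleen basophils. The BM mature libraries were the highest of the 12 and the other 3 groups overlapped. Its log2 fold change was -0.56 ± 0.14 (SE), adjusted p = 0.00949 (edgeR), and the call was lost without pre-basophil replicate 1, without pre-basophil replicate 3 or with scaling to library size alone.

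Eif2ak3 (PERK) was low, at 16.7, 17.9 and 15.5 CPM in the BaP libraries, 10.1, 9.25 and 14.4 in those of pre-basophils, 7.96, 9.01 and 6.93 in those of BM mature and 10.1, 8.58 and 14.3 in those of spleen basophils. BaPs were above all pre-basophil and mature libraries, at the nearest by 15.5 against 14.4 CPM. They were not called apart from pre-basophils (log2 fold change 0.55 ± 0.23 (SE), adjusted p = 0.164, edgeR). Pre-basophils and BM mature basophils were not called apart either (log2 fold change 0.52 ± 0.24 (SE), adjusted p = 0.135, edgeR). Ddit3 (CHOP), a transcription factor induced downstream of PERK, varied more between replicates, at 147, 65.8 and 74.6 CPM in the BaP libraries, 87.5, 48.4 and 74.8 in those of pre-basophils, 43, 33.3 and 42.5 in those of BM mature and 30.9, 30.03 and 45.2 in those of spleen basophils. All CLEC12A-high libraries were above all mature ones, but pre-basophils against BM mature basophils missed the threshold by little (log2 fold change 0.83 ± 0.29 (SE), adjusted p = 0.051, edgeR) and were called in 8 of 15 alternatives. The symbol covers 2 overlapping gene records in GENCODE M21.

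Atf4, a factor controlled mainly at translation, was at 707, 515 and 466 CPM in the BaP libraries, 623, 499 and 647 in those of pre-basophils, 616, 604 and 646 in those of BM mature and 442, 527 and 477 in those of spleen basophils. Its BM groups overlapped, and the spleen libraries were below the BM mature ones. Atf6 was even flatter, at 53.3, 47.4 and 43.4 CPM in the BaP libraries, 53.7, 44.8 and 45.6 in those of pre-basophils, 46.8, 54.1 and 53.9 in those of BM mature and 46.2, 60.9 and 40.9 in those of spleen basophils. No group of Atf6 separated from another, and the 4-group test gave adjusted p of 0.193 for Atf4 and 0.892 for Atf6 (edgeR). A count of mRNA does not show the cleavage or translation by which these factors are activated.

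Among the degradation genes, Herpud1, which organises the ubiquitin ligase complex of the ER membrane, was at 569, 376 and 216 CPM in the BaP libraries, 274, 185 and 209.7 in those of pre-basophils, 111, 97.7 and 106 in those of BM mature and 64.2, 72.4 and 64.7 in those of spleen basophils. Its CLEC12A-high libraries were all above its BM mature libraries, and these were all above those of spleen. Its log2 fold change in pre-basophils against BM mature basophils was 1.09 ± 0.26 (SE), adjusted p = 0.00646 (edgeR). Syvn1 (the ligase HRD1) was higher in pre-basophils by 1.07 ± 0.31 (SE), adjusted p = 0.0187 (edgeR), a call lost without pre-basophil replicate 1 or without any 1 of the BM mature libraries. Its exons overlap those of Mrpl49 on the other strand, and whether counting used strand was not given in the sources used here. Edem1, a lectin that extracts misfolded glycoproteins, and Sel1l, the adaptor of HRD1, had log2 fold changes of 0.51 and 0.16 at adjusted p of 0.0555 and 0.415 (edgeR).

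Of the translocation genes, Ssr2, a subunit of the translocon-associated TRAP complex, was at 168, 149.7 and 97.4 CPM in the BaP libraries, 122, 97.4 and 119 in those of pre-basophils, 47.1, 44.1 and 39.9 in those of BM mature and 29.3, 33 and 32 in those of spleen basophils. The libraries fell into CLEC12A-high, BM mature and spleen ranges without overlap between these, and the log2 fold change was 1.37 ± 0.18 (SE), adjusted p = 9.63e-05 (edgeR). The other TRAP gene, Ssr1, the signal peptidase genes Spcs1 and Spcs2 and the channel gene Sec61a1 were called with log2 fold changes of 0.93, 0.54, 0.84 and 0.61. The small channel subunit gene Sec61b had 0.53 at an adjusted p of 0.0596 (edgeR). Spcs2 shares sequence with the pseudogene Spcs2-ps, which had 2.91% of its counts. Exons of Spcs1 overlap those of Glt8d1 on the other strand. Leaving out pre-basophil replicate 1 ended the call of Spcs1, as did leaving out replicate 1 or replicate 2 of BM mature basophils.

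Between genes, levels are compared per length (CPM per kb of the longest annotated transcript, mean ± SD, n = 3). This division takes counts to grow with transcript length, which was not tested, so the order of genes depends on it. In BaPs Hspa5 stood at 1300.4 ± 614 and Calr at 1079 ± 543, followed by Pdia3 at 389 ± 152 and Hsp90b1 at 375 ± 132. Without BaP replicate 3 the means were 1619.9, 1372, 472 and 441, in the same order. Hspa5 and Calr lay within 1 SD of each other in BaPs, and so did Pdia3 and Hsp90b1. In BM mature basophils Hspa5 was at 976 ± 83.4, Atf4 at 308 ± 10.8 and Calr at 118 ± 24.3. Calr thus moved from the second to the fifth place of the 34 per length. In spleen mature basophils Hspa5 was at 1107 ± 56.8, and the next gene, Atf4, at 239 ± 21.3. The sensor genes Ern1 and Eif2ak3 were among the lowest 3 of the 34 in every group, at 4.05 ± 0.0908 and 1.77 ± 0.231 in BM mature basophils. Division by coding length left Hspa5 first in all 4 groups and changed the order below it.

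In CD34+ BaPs against pre-basophils, 2 members were called. Pdia6 was 1.62-fold higher (log2 fold change 0.70 ± 0.20 (SE), adjusted p = 0.0475, edgeR) and Ero1l was 1.94-fold lower (log2 fold change -0.96 ± 0.22 (SE), adjusted p = 0.0184, edgeR). Of all tested genes 2.79% were called higher and 4.29% lower. The median log2 fold change of the 34 was 0.41 against 0.0216 over all tested genes, and 30 of the 34 were positive. Hyou1, Creld2, Ero1lb and Sdf2l1 came next at log2 fold changes of 1.11, 0.80, 0.66 and 1.05, with adjusted p of 0.0506, 0.053, 0.0548 and 0.0608 (edgeR).

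This count turned on 1 library. BaP replicate 3 was below both other BaP libraries in 33 of the 34 genes, against 40.0% of all tested genes. The exception was Ddit3. Over the 34 genes the median ratio of BaP replicate 3 to the mean of replicates 1 and 2 was 0.553, ranging from 0.360 to 0.960, and over all tested genes it was 0.990. Without BaP replicate 3, the same test called 24 members higher, against 5.97% of all genes then tested, and 1 lower, against 6.47%. The median log2 fold change of the 34 was then 0.62, and Hspa5 was among those called (log2 fold change 0.72, adjusted p = 0.0079, edgeR). The lower one was again Ero1l. With the replicate number as a block, all 3 libraries kept, 8 members were higher, against 3.79% of all tested genes, and 1 was lower, against 5.49%. When any other single BaP or pre-basophil library was left out, 0 or 1 member was called, against 2.38% to 7.31% of the genes then tested. The lower basophil and higher erythroid, lymphoid, mitochondrial and S100a9 counts of BaP replicate 3 were given above, and their part in this was not tested.

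**Figure D5:**
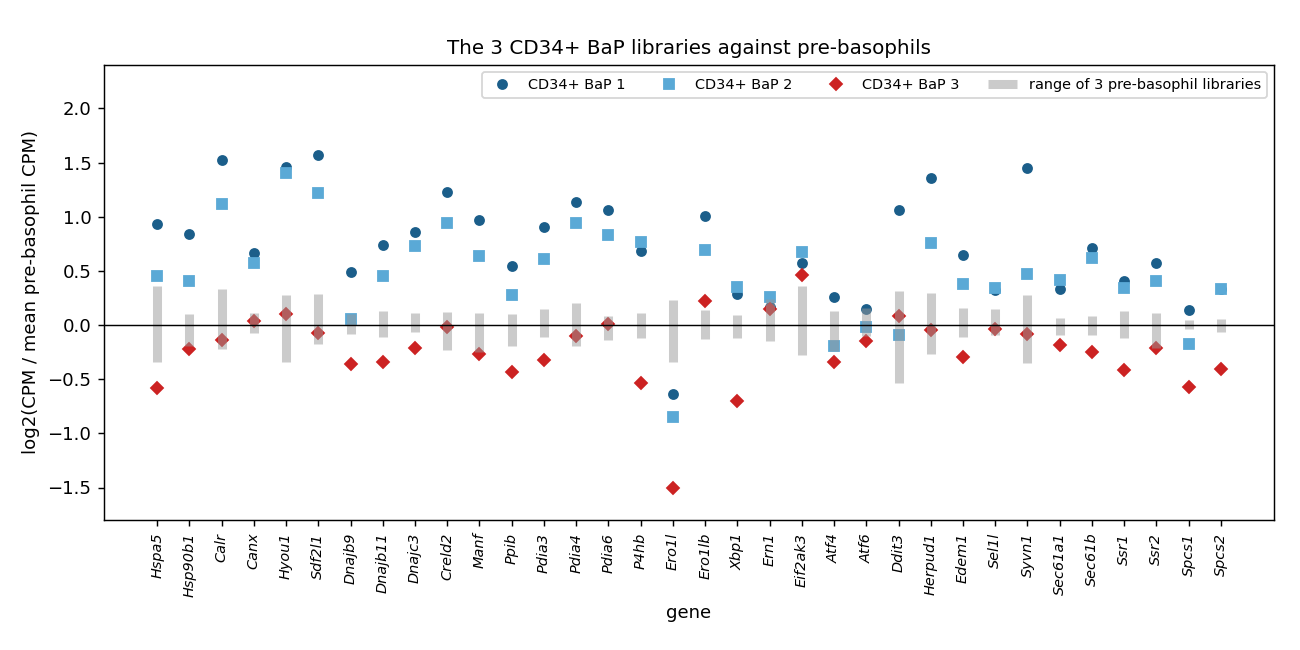
Log2(CPM divided by the mean pre-basophil CPM) of the 34 genes (horizontal axis) in each CD34+ BaP library (points), with the range of the 3 pre-basophil libraries as grey bars. Replicate 1 lies above the grey bars for 31 genes, replicate 2 for 28 and replicate 3 (red diamonds) for 2, with a median of 0.553 of the mean of the other BaP libraries. Ero1l is below its bar in all 3.

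In CD34+ BaPs against BM mature basophils, the ends of the BM series, 27 members were higher and 3 were lower, against 25.3% and 19.7% of all tested genes. The median log2 fold change was 1.34 for the 34 and 0.0493 for all tested genes. Sdf2l1 was 16.5-fold higher in BaPs, Hyou1 9.97-fold and Calr 9.12-fold, with log2 fold changes of 4.05 ± 0.37 (SE), adjusted p = 1.86e-06 for Sdf2l1 (edgeR), 3.32 for Hyou1 and 3.19 for Calr. Besides the genes already higher in pre-basophils, Ero1lb, Eif2ak3, Ddit3, Edem1, Sel1l and Sec61b were called higher here, with log2 fold changes between 0.37 and 1.27. Spcs1, which was called in pre-basophils, was not called here with all libraries (log2 fold change 0.36 ± 0.15 (SE), adjusted p = 0.0603, edgeR). The lower members were Ero1l (log2 fold change -1.06 ± 0.22 (SE), adjusted p = 0.00123, edgeR), Dnajb9 (adjusted p = 0.0197, edgeR) and Ern1 (adjusted p = 0.0447, edgeR), and Ern1 was called in only 3 of 15 alternatives and changed sign with scaling to library size alone (log2 fold change 0.06, adjusted p = 0.76, edgeR). Without BaP replicate 3, 29 members were higher and 2 were lower, against 27.4% and 23.9% of the genes then tested, and the log2 fold changes of Sdf2l1, Hyou1 and Calr were 4.42, 3.67 and 3.55. Hspa5 (0.74, adjusted p = 0.00105, edgeR) and Spcs1 (0.54, adjusted p = 0.000643, edgeR) were then called higher. Ern1 was then not called (-0.33, adjusted p = 0.095, edgeR).

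In spleen against BM mature basophils, 1 member was called. Spcs1 was 1.54-fold lower in spleen (log2 fold change -0.62 ± 0.15 (SE), adjusted p = 0.0253, edgeR), and the call was lost when any 1 of the 6 libraries was left out. Of all tested genes 4.67% were called lower and 3.16% higher in spleen. The median log2 fold change of the 34 was -0.24, against 0.00521 over all tested genes. All 3 spleen libraries lay below all 3 BM mature ones in 17 of the 34 genes, against 17.1% of all tested genes, and above them in 2, Ero1lb and Syvn1, against 16.6%. The 17 included all translocation genes but Sec61a1, and Hsp90b1, Calr, Sdf2l1, Creld2, Manf, Pdia3, P4hb, Ero1l, Ern1, Atf4, Herpud1 and Edem1. Sdf2l1 had the lowest estimate, at a log2 fold change of -1.27 ± 0.40 (SE), adjusted p = 0.0685 (edgeR), and Ero1l followed at -0.74 ± 0.21 (SE), adjusted p = 0.0509 (edgeR). Fitted on the 6 mature libraries alone, the same test called 13 members lower, against 8.88% of the genes then tested, and none higher. The plasma cell and B cell marker sums, higher in the spleen libraries, were given above, and their part was not tested. In the plasma cell list Ighm, Jchain, Mzb1 and Irf4 had higher means in spleen than in BM mature basophils (Ighm 167 against 20.2 CPM). Igha was lower (0.798 against 3.69 CPM). Sdc1, Tnfrsf17, Prdm1, Derl3 and Ighg2b had means of at most 1.60 CPM in both groups. Plasma cells are known for high levels of ER genes.

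Genes with an ERSE or ERSE-II match were not the only ones to differ. In pre-basophils against BM mature basophils, 9 of the 11 genes with a match were higher, against 16.3% of all tested genes, with a median log2 fold change of 1.07 and a range from 0.0194 (Hspa5) to 2.20 (Calr). Of the 18 genes with a promoter entry and neither match, 9 were higher and 2 lower (11% of all tested genes were lower), with a median of 0.68 and a range from -0.65 (Dnajb9) to 2.99 (Sdf2l1). Thus Hspa5 and Calr, each printed above with 1 exact ERSE, lay at opposite ends of the first range, and Sdf2l1, with no match in its promoter, led the second.

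The genes around the 34 in the same pathway were read from 7 lists of 134 genes, of which 124 were tested. In pre-basophils against BM mature basophils 52 of them were higher and 8 lower, against 16.3% and 11% of all tested genes. The oligosaccharyltransferase genes, which attach the glycans that the lectins read, came nearest to the 34, with 9 of 12 higher, none lower and a median log2 fold change of 0.92. Their most abundant gene, Ddost, had 1.55 ± 0.23 (SE), adjusted p = 0.000271 (edgeR), and Rpn2 was the highest of those called at 2.05 ± 0.24 (SE), adjusted p = 4.1e-05 (edgeR). Of 21 other translocation genes 12 were higher and none was lower (median 0.55). Ssr4, the most abundant of these, was called at 1.23 ± 0.22 (SE), adjusted p = 0.000952 (edgeR), and Sec61g was the highest called at 1.24 ± 0.28 (SE), adjusted p = 0.00465 (edgeR). Of 23 other folding and quality control genes tested, 13 were higher and none was lower (median 0.78), among them the most abundant, the lectin gene Mlec (0.81 ± 0.20 (SE), adjusted p = 0.00891, edgeR), and the highest called, Sil1, a nucleotide exchange factor of BiP (2.59 ± 0.29 (SE), adjusted p = 2.71e-05, edgeR). Of 17 ER to Golgi transport genes tested, 7 were higher and none was lower (median 0.38), with the coat gene Sec24d the highest called at 1.70 ± 0.31 (SE), adjusted p = 0.00122 (edgeR), while Tmed2, the most abundant, was not called.

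The remaining lists were mixed, and some of their counts were near or below the share of all tested genes (16.3% higher, 11% lower). Of 22 other degradation genes tested, 5 were higher and 3 lower in pre-basophils (median 0.12). Derl3, a retrotranslocation gene that also stands in the plasma cell list, was the highest called (adjusted p = 0.0055, edgeR), at 11, 12.7 and 5.52 CPM in the BaP libraries, 2.52, 2.19 and 1.92 in those of pre-basophils, 0.318, 0 and 0.374 in those of BM mature and 0.320, 0.165 and 0.664 in those of spleen basophils. The BM mature libraries were at or below their limit for a count of 0, so no fold is given. Os9, the lectin gene with the highest level of the list, was the lowest called at -0.43 ± 0.15 (SE), adjusted p = 0.0413 (edgeR). Of 17 integrated stress response targets, 5 were higher and 4 lower (median -0.0159). The serine synthesis gene Psat1 was the highest called at 3.33 ± 0.32 (SE), adjusted p = 9.08e-06 (edgeR). Ddit4, an inhibitor of mTORC1, was the lowest called at -1.72 ± 0.21 (SE), adjusted p = 5.1e-05 (edgeR). Ppp1r15a (GADD34), which reverses the PERK signal, was the most abundant, at 619, 597 and 505 CPM in the BaP libraries, 949.8, 985 and 1016 in those of pre-basophils, 2504, 2291 and 2518 in those of BM mature and 2523, 2747 and 3343 in those of spleen basophils. All of its mature libraries lay above all others, and the spleen libraries overlapped those of BM mature basophils. Of 12 other stress sensors and membrane-bound bZIP factors, 1 was higher (Atf6b, 0.63 ± 0.17 (SE), adjusted p = 0.0127, edgeR) and 1 lower (Eif2ak1, the heme-regulated kinase, -0.67 ± 0.13 (SE), adjusted p = 0.00154, edgeR), and the most abundant, Nfe2l2, was not called.

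In BaPs against pre-basophils, 5 of the 124 were higher and 3 lower, near the 2.79% and 4.29% of all tested genes. Without BaP replicate 3, 33 of 123 were higher and 5 lower, against 5.97% and 6.47% of the genes then tested. With all libraries these included the isomerase gene Pdia5 (2.03 ± 0.46 (SE), adjusted p = 0.0197, edgeR), which had at most 23.4 CPM in any library, Derl3 (2.12 ± 0.41 (SE), adjusted p = 0.00854, edgeR) and Shmt2 (0.96 ± 0.18 (SE), adjusted p = 0.00713, edgeR) higher, and Ddit4 and Eif2ak1 lower at log2 fold changes of -0.99 and -0.47. In BaPs against BM mature basophils 66 were higher and 13 lower, against 25.3% and 19.7% of all tested genes, and without BaP replicate 3 it was 75 and 16 of 123, against 27.4% and 23.9%. With all libraries Pdia5, Derl3, Psat1, Rpn2, Sec61g, Sec24d and Creb3l1 were the highest called of their lists and Uggt2, Os9, Ddit4 and Eif2ak1 the lowest called. In spleen against BM mature basophils 3 were higher and 4 lower, no more than the 3.16% and 4.67% of all tested genes. The highest called were Eif2ak2 (0.88 ± 0.20 (SE), adjusted p = 0.0192, edgeR), an RNA-activated kinase, and the translocation gene Sec62 (0.55 ± 0.13 (SE), adjusted p = 0.0219, edgeR). The lowest called were Mthfd2 (-2.17 ± 0.42 (SE), adjusted p = 0.0107, edgeR), a mitochondrial folate enzyme gene, the oligosaccharyltransferase gene Tusc3 (-0.90 ± 0.20 (SE), adjusted p = 0.0196, edgeR) and the selenoprotein gene Selenok (-0.48 ± 0.13 (SE), adjusted p = 0.036, edgeR).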

How the data were processed

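Bulk RNA-seq libraries were made by the authors from sorted cells by bead capture of poly(A) RNA and amplification of the whole transcriptome (tailing TAS-Seq). Reads were trimmed with Cutadapt 3.4 and aligned to reference RNA with Bowtie2 2.4.2, per the submitters' processing notes. The deposited values are raw read counts per gene symbol. Molecular identifiers, strand and the treatment of multiply mapped reads were not given in the sources used here, so counting intervals cover counting error only. The study's methods name GRCm38, whereas the processing notes name GRCm39. Gene coordinates here are GRCm38 (GENCODE M21, which held 97.2% of the symbols tested) and promoters are RefSeq GRCm38.p6. Protein sequences were not analysed here.

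Samples were grouped by their titles. Counts were tested with edgeR 4.0.16 (R 4.3.3) by the quasi-likelihood method, in a single fit of all 12 libraries, after filterByExpr left 15083 genes and with TMM scaling (factors 0.844 to 1.30). P-values were adjusted over all tested genes by the Benjamini-Hochberg method. CPM are counts per 1000000 of the TMM-scaled total. No pair of libraries agreed within sampling noise. Since each library is a pool from the same experiment, p-values measure the spread between pools. The edgeR step was tested on simulated data. Alternatives were RLE size factors, library size alone, repeated TMM with called genes left out, no filter on low counts, at least 10 counts in 3 libraries, DESeq2 1.42.0, limma-voom 3.58.1, a replicate block, a fit of the compared libraries alone and leaving out each library.

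Replicate numbers come from the sample titles. Deviations from the group means correlated by 0.125 to 0.262 in all 9 same-numbered pairs of BM groups, so the replicate number was fitted as a block in an alternative. The p-values given come from fits without this block, and the blocked count is given where it differs. Copies were sought with BLAST 2.17.0 at 95% identity or more over at least 200 bases. The 34 genes, the lists and the rules were chosen with earlier results of these data known. Values in every library are given for the 10 members with the widest range of group means on the log2 scale among those called in the 4-group test, for the 6 sensors and transcription factors and, chosen after their values were seen, for Hspa5, Dnajb9 and Ero1l. From each pathway list the most abundant gene and the highest and lowest gene called in each comparison are named, and from each marker list the most abundant gene. Mcpt4 and the other marker genes named were chosen after their values were seen.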

Additional observations from a re-analysis of the deposited data

How the results depend on the processing

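Of the 34 genes, 21 to 28 were called in pre-basophils against BM mature basophils, 27 to 31 in BaPs against BM mature basophils and 28 to 33 among the 4 groups, over all alternatives. Of all genes tested in the same settings, 13.2% to 39.9%, 22.3% to 51.3% and 30.5% to 65.8% were called. The direction of every called member of these comparisons was kept, except that Ern1 in BaPs against BM mature basophils turned to a log2 fold change of 0.0648 (adjusted p = 0.76, edgeR) with scaling to library size alone. Percentages in brackets below are the share of all genes tested in the same setting that were called. In BaPs against pre-basophils, the 2 calls (7.08%) became 1 with RLE size factors (6.53%), 1 with repeated TMM (6.08%), 1 with limma-voom (7.46%) and 5 with DESeq2 (7.54%). They became 14 with no filter on low counts (6.49%), 17 with library size alone (10.7%), 9 with the replicate block (9.28%) and 0 with only the compared libraries (2.88%). Leaving out 1 library at a time gave 0 to 25 (2.38% to 12.4%), the highest without BaP replicate 3. For the 124 genes of the other lists, an alternative chosen after seeing the data, leaving out BaP replicate 3 moved the calls in BaPs against pre-basophils from 8 (7.08%) to 38 (12.4%). The levels per length in BaPs without that library were also added after seeing the data. In spleen against BM mature basophils the single call (7.83%) became 8 with no filter (5.57%), 3 with DESeq2 (8.44%) and 13 with only the compared libraries (16.4%). It became 0 or 1 with 1 library left out (1.52% to 5.08%). The replicate block gave 3 there (11.3%), although same-numbered spleen and BM mature libraries correlated by only 0.00763 to 0.0254. Whether they came from the same animals was not given in the sources used here. Apart from the counts given for BaPs against pre-basophils and for spleen against BM mature basophils, the block changed no count of called members by over 1.5 times. The summed level of the 34 genes in pre-basophils was 1.51 times that of BM mature basophils, 1.76 times as a share of the raw total and 1.94 times without Hspa5. In spleen it was 0.948 times that of BM mature basophils, 1.04 times as a share of the raw total and 0.788 times without Hspa5. Apart from these changes in what is fitted or summed, the cause was not tested. Scaling to library size alone shifted all genes, whose median log2 fold change came to 0.22, 0.23, 0.14 and 0.48 in pre-basophils against BM mature basophils, BaPs against pre-basophils, spleen against BM mature basophils and BaPs against BM mature basophils, and the share of calls that were higher from 59.8% to 82.5%, from 39.4% to 79.6%, from 40.4% to 60.6% and from 56.3% to 82.9%. With 3 pools per group, small differences are not well measured, and totals allow up to 0.290 to 0.955 CPM where no read was counted. The low genes did not have the widest SE of the log2 fold change in pre-basophils against BM mature basophils. It was 0.14 for Ern1, 0.21 for Ero1lb and 0.24 for Eif2ak3, against 0.34 for Hyou1 and 0.36 for Sdf2l1.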
